A study of Mus musculus with 6 samples.

Results

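Microtubule-associated proteins (MAPs) were examined as the 9 genes Map1a, Map1b, Map1s, Map2, Map4, Map6, Map7, Map9 and Mapt, out of 23038 genes listed for each library. They were chosen by name, as structural proteins that bind along the microtubule, with earlier results of these data known. In the deposited files 8 of the 9 stand under older symbols that begin with Mtap, so that every gene was matched by its Entrez identifier, and each was found. The cells were mouse primary cultured oligodendrocyte precursor cells (mOPCs), which were immunopanned from embryos at E14.5. Cells of 3 libraries were transfected with control siRNA (siNC) and cells of the other 3 with siRNAs against Qk (siQk), and all were collected 72 h after transfection. The siQk cultures received 3 different siRNAs, and which library received which is not stated in the sources used here, nor is the strain of the mice. The samples are described as biological replicates of each treatment, and polyadenylated RNA was sequenced as 75-nt paired-end reads.

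Microtubules are hollow polymers of tubulin, and MAPs bind their surface or lumen, stabilise or bundle them, space them apart and set which motor proteins can walk on them. Precursors and oligodendrocytes (OLs) extend long branched processes on a microtubule core, along which RNA granules that carry Mbp mRNA travel to the myelin-forming tips. The Qk gene encodes the RNA-binding proteins Qki5, Qki6 and Qki7, which act in splicing, export and stability of mRNA in this lineage, and Map1b mRNA is a known Qki target that is stabilised by binding. Among the 9 genes, Map1a, Map1b and Map1s form the MAP1 family, whose proteins are cleaved into a heavy and a light chain. Map2, Map4 and Mapt (tau) share the tubulin-binding repeats of the tau family. Map6 (STOP) protects microtubules from cold, Map7 (ensconsin) recruits kinesin-1, and Map9 (ASAP) is known from the mitotic spindle.

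The Qki proteins bind ACUAAY in RNA, often with a shorter UAAY core element nearby. The annotated 3'UTRs of the 9 genes were therefore searched on the transcript strand for ACTAAC and ACTAAT, and each match for TAAC or TAAT starting 1 to 20 bases after it (GENCODE M21 on GRCm38, the assembly that mm10 also names). The sites shown are those of the 2 changed transcripts that hold a match, Map6 and Map2, and the 2 matches that have a core element nearby, in Map9 and Map4. All 4 lie on the plus strand, in the longest annotated 3'UTR of their gene. They are at chr7:99317742-99317767 for Map6, chr1:66441585-66441610 for Map2, chr3:82392397-82392418 for Map9 and chr9:110005364-110005386 for Map4. The Map6 and Map4 sites lie far before the annotated ends of these genes, at 99337137 and 110083955. Whether the cells express the transcripts that hold these 2 sites was not tested. Capitals mark the letters searched for.
Map6: aggccacaaaACTAATtagagacttc
Map2: ttctagatccACTAATgccagtttct
Map9: ACTAACttgccattcagcTAAC
Map4: ACTAATaaacattgtatatTAAC
The Map6 match began 80 bases after the stop codon and the Map2 match 2588 bases after it.

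The targeted gene was checked first. Qk stood at 209, 206 and 163 RPKM in siNC replicates 1, 2 and 3 and at 51.3, 76.6 and 36.2 RPKM in siQk replicates 1, 2 and 3, where RPKM is the deposited tag number scaled by exon length and library total. The log2 fold change, siQk over siNC, was -1.98 (standard error 0.28, edgeR FDR 0.00311). Libraries held 58166490 to 141045937 tags, and Rn45s, a ribosomal RNA gene, took 3.11% of the tags in the smallest, siNC replicate 1, and 0.169% to 0.389% in the others. Precursor markers Olig2, Sox10 and Pdgfra stood at 71.1 to 251 RPKM in every library, as the label of the cells says. Calls used the cutoffs of the study, a P under 0.01 together with an FDR under 0.1, over the 12505 genes with an average logCPM over 0. With these cutoffs 31.0% of all tested genes were called, 17.2% lower and 13.8% higher in siQk, so that calls were common throughout the transcriptome. The libraries are bulk RNA, in which fewer cells of a type and less RNA per cell cannot be told apart.

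Of the 9 MAP transcripts, all passed the filter on low values, and 4 were changed in siQk. Map1b, Map6 and Map1a fell, and Map2 rose. The other 5, Map1s, Map4, Map7, Map9 and Mapt, did not pass the cutoffs. The 3 lower and 1 higher of 9 (44.4% called) stand beside 17.2% lower and 13.8% higher among all genes, and the median log2 fold change of the 9 was -0.29 against 0.01 for all tested genes. With a stricter cutoff, an FDR under 0.05 and a log2 fold change of 1 or more in size, Map1b alone of the 9 was called, beside 7.56% of all tested genes. The RPKM ranges of siNC and siQk did not overlap for 6 of the 9, beside 58.3% of all tested genes. The MAP genes thus did not move together, and opposite changes met within one small group of proteins.

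**Figure D1:**
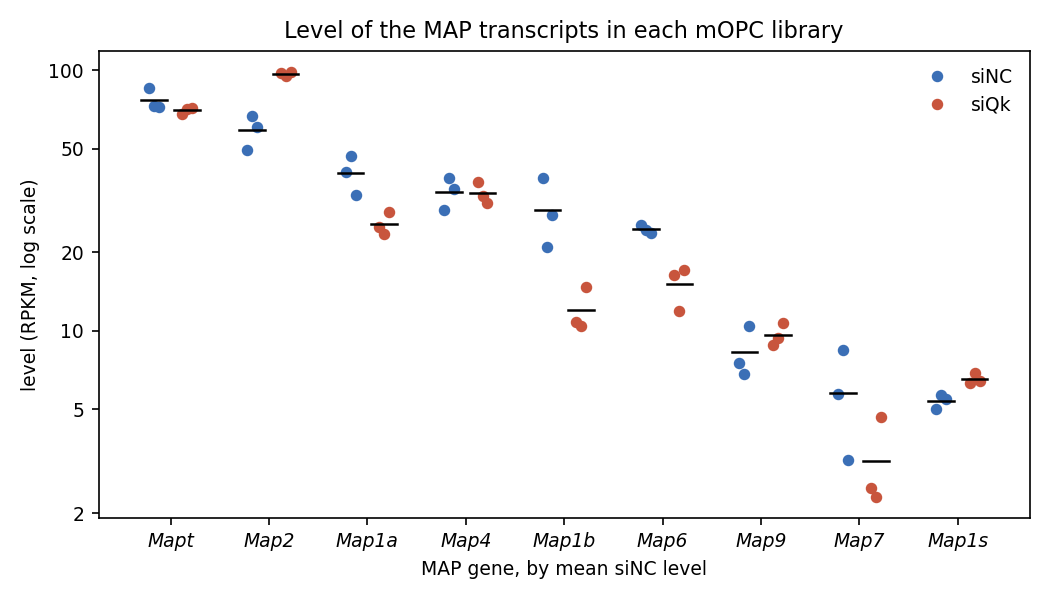
Level of each MAP transcript in RPKM (log scale) in the 3 siNC libraries (blue) and the 3 siQk libraries (red), with replicates 1 to 3 from left to right and bars at the group means. The siQk points lie below all siNC points for Map1a, Map1b, Map6 and Mapt and above them for Map2 and Map1s, whereas the groups overlap for Map4, Map7 and Map9.

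Map1b (Entrez gene 17755, at chr13:99421446-99516540, minus strand) encodes the MAP that is abundant in growing axons and in OL processes. Its level was 38.5, 21.1 and 27.8 RPKM in siNC replicates 1, 2 and 3 and 10.8, 10.4 and 14.7 RPKM in siQk replicates 1, 2 and 3. All siQk libraries stood under all siNC libraries, and the siNC libraries were themselves far apart, with replicate 1 the highest. The mean fell from 29.1 ± 8.81 to 12 ± 2.38 RPKM (SD, n = 3), and the log2 fold change was -1.44 (standard error 0.26, edgeR FDR 0.00757), which leaves 36.8% of the siNC level. Without siNC replicate 1 the log2 fold change was -1.14, and the transcript was still called.

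Map1a (Entrez gene 17754, at chr2:121289600-121310832, plus strand) encodes the MAP1 protein of mature neurites. It stood at 40.8, 46.7 and 33.1 RPKM in siNC and at 25.0, 23.6 and 28.6 RPKM in siQk, each in the order of replicates 1, 2 and 3. The groups did not overlap, and the lowest siNC library, replicate 3, lay above the highest siQk library, also replicate 3. Its mean fell from 40.2 ± 6.82 to 25.7 ± 2.55 RPKM (SD, n = 3), and its log2 fold change was -0.80 (standard error 0.15, edgeR FDR 0.00837). The third member of the family, Map1s (Entrez gene 270058, at chr8:70905932-70917529, plus strand), is the short and widely expressed form. It stood at 5.03, 5.66 and 5.49 RPKM in siNC and at 6.34, 6.89 and 6.42 RPKM in siQk. The siQk libraries were all higher in RPKM, but the log2 fold change of 0.13 (standard error 0.069, edgeR FDR 0.178) did not pass the test. Summed over the MAP1 family, RPKM went from 74.7 ± 9.05 in siNC to 44.3 ± 4.76 in siQk (SD, n = 3), without overlap (two-sided exact permutation test over libraries, p = 0.1, which is as low as 3 against 3 can go). This sum weighs Map1a by a deposited exon length that is much shorter than its annotated transcript, as described with the order of levels.

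Map6 (Entrez gene 17760, at chr7:99267447-99337137, plus strand) was the tightest of the MAP transcripts that fell in its siNC libraries. It stood at 25.6, 24.3 and 23.7 RPKM in siNC replicates 1, 2 and 3 and at 16.3, 12 and 17.1 RPKM in siQk replicates 1, 2 and 3. All siQk libraries lay below the siNC libraries, with siQk replicate 2 the lowest. The mean fell from 24.5 ± 0.946 to 15.1 ± 2.79 RPKM (SD, n = 3), and its log2 fold change was -0.85 (standard error 0.15, edgeR FDR 0.00669).

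Map2 (Entrez gene 17756, at chr1:66175273-66442583, plus strand), the classic MAP of neuronal dendrites that precursors of the OL lineage also express, moved the other way. Its level was 49.5, 66.5 and 60.4 RPKM in siNC replicates 1, 2 and 3 and 97.1, 95.0 and 98.4 RPKM in siQk replicates 1, 2 and 3. The siQk libraries were close to one another and stood far above the highest siNC library, replicate 2. The mean rose from 58.8 ± 8.62 to 96.8 ± 1.68 RPKM (SD, n = 3). The log2 fold change was 0.57 (standard error 0.096, edgeR FDR 0.00554), a 1.49-fold rise in the fit, against 1.65-fold in RPKM. The fit scales libraries with TMM factors of 0.899, 0.963 and 0.987 for siNC replicates 1, 2 and 3 and of 1.05, 1.07 and 1.04 for siQk, which RPKM does not carry.

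Mapt (Entrez gene 17762, at chr11:104231390-104332090, plus strand) encodes tau, which in OLs links the Fyn kinase to microtubules. It stood at 85.3, 73.0 and 72.1 RPKM in siNC and at 68.0, 70.8 and 71.6 RPKM in siQk. The groups did not overlap but nearly touched, between siNC replicate 3 and siQk replicate 3. The log2 fold change was -0.29 (standard error 0.11, edgeR FDR 0.0769), and its P of 0.0340 in edgeR's quasi-likelihood test missed the cutoff. Map4 (Entrez gene 17758, at chr9:109931460-110083955, plus strand), the tau relative of non-neuronal cells, had 29.0, 38.7 and 34.9 RPKM in siNC and 37.2, 32.9 and 30.9 RPKM in siQk. Its groups overlapped, and the log2 fold change was -0.17 (standard error 0.11, edgeR FDR 0.243). Summed over the tau family, RPKM went from 170 ± 7.50 in siNC to 201 ± 1.78 in siQk (SD, n = 3), and the groups did not overlap (two-sided exact permutation test, p = 0.1). With TMM-scaled libraries the same sums were 179 ± 8.24 and 190 ± 3.42, with the highest siNC library at 185 and the lowest siQk library at 186. The higher sum lay in Map2, whose mean went from 58.8 to 96.8 RPKM. The means of Mapt, at 76.8 and 70.1 RPKM, and of Map4, at 34.2 and 33.7 RPKM, were lower in siQk.

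Map7 (Entrez gene 17761, at chr10:20148471-20281590, plus strand) was the most variable of the 9. Its level was 5.71, 8.45 and 3.21 RPKM in siNC replicates 1, 2 and 3 and 2.50, 2.32 and 4.68 RPKM in siQk. The groups overlapped, since siNC replicate 3 lay below siQk replicate 3. The log2 fold change of -1.02 had a standard error of 0.41 (edgeR FDR 0.0933) and did not pass the cutoff on P. Without siNC replicate 3 it was -1.33 (edgeR FDR 0.0282), which passed, and without siNC replicate 2 it was -0.67 (edgeR FDR 0.248). The spread between libraries of one group was thus as large as the difference between the groups. Map9 (Entrez gene 213582, at chr3:82358044-82395268, plus strand) had 7.53, 6.86 and 10.5 RPKM in siNC and 8.87, 9.38 and 10.7 RPKM in siQk. Its groups overlapped, and the log2 fold change of 0.07 (standard error 0.15, edgeR FDR 0.727) was smaller than its error.

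**Figure D2:**
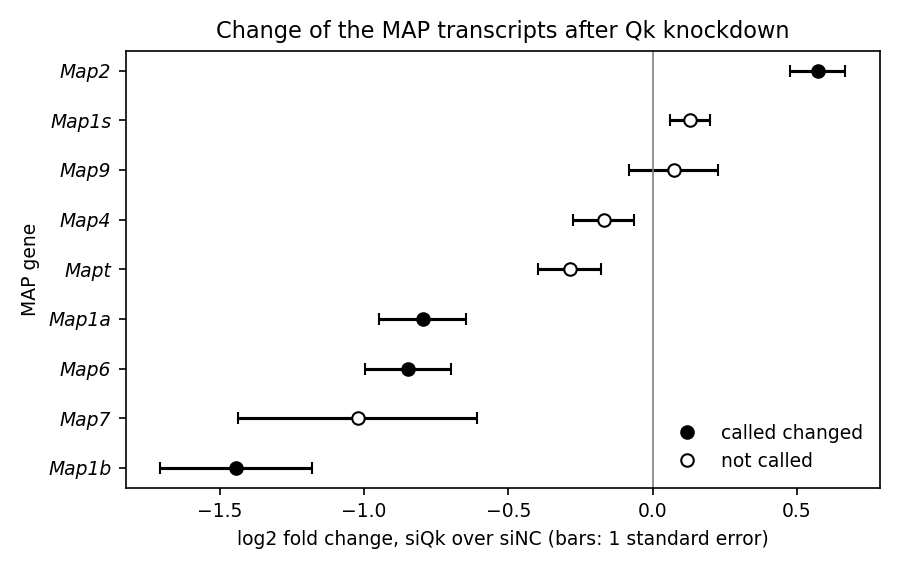
Log2 fold change, siQk over siNC, of the 9 MAP transcripts with bars of 1 standard error, from the edgeR fit over 12505 genes. Filled points were called changed, namely Map2 at 0.57, Map1a at -0.80, Map6 at -0.85 and Map1b at -1.44, and Map7 has the widest bar.

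Levels per exon length were then set in order within each group. In siNC, Mapt was the highest and Map2 next, each clear of its neighbour. Map1a, Map4, Map1b and Map6 followed, with ranges that overlapped from each to the next, and Map9, Map7 and Map1s came last, again with overlapping ranges. In siQk, Map2 was the highest, clear of Mapt, and was followed by Map4, Map1a, Map6, Map1b, Map9, Map1s and Map7. Of the neighbours in siQk, Map6 and Map1b overlapped, as did Map1b and Map9. Map2 and Mapt thus changed places at the head of the order, and Map1b, which shared a range with Map4 and Map6 in siNC, stood beside Map9 in siQk. The place of Map1a is less certain than the others, since its deposited exon length of 3808 bases is short of its longest annotated coding transcript of 11825 bases. For the other 8 the deposited length was at least that of the transcript. Fold changes do not use the length.

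The summed level of the 9 transcripts overlapped between the groups, 283 ± 10.6 RPKM in siNC against 273 ± 9.93 RPKM in siQk (SD, n = 3; two-sided exact permutation test, p = 0.3). With TMM-scaled libraries the sums were 299 ± 22.4 and 259 ± 12.1 and did not overlap, so that whether the total fell depends on the scaling. Shares within a library do not depend on it. Map2 made up 17.2%, 22.8% and 22.3% of the summed RPKM in siNC replicates 1, 2 and 3 and 35.7%, 36.1% and 34.7% in siQk. The share of Map1b was 13.4%, 7.23% and 10.3% in siNC and 3.98%, 3.95% and 5.20% in siQk. Map2 gained over the rest in every siQk library, and Map1b lost. Map1a went from 14.2 ± 1.92% to 9.42 ± 0.595% and Map6 from 8.67 ± 0.296% to 5.53 ± 0.859% (SD, n = 3), both without overlap. By tag numbers instead of RPKM, which use no exon length, Map1a made up 7.62% of the 9 in siNC and 5.02% in siQk, so that the size of its share, and with it those of the others, rests on its deposited length, whereas its direction was the same. The shares of Mapt, at 27.1 ± 2.37% and 25.7 ± 1.02%, and of Map4, at 12.1 ± 1.72% and 12.4 ± 1.37%, overlapped between the groups (SD, n = 3; exact permutation test, p = 0.6 and 0.7). The ratio of Map2 to Map1b, a measure chosen after the values were seen, was 1.28, 3.16 and 2.17 in siNC replicates 1, 2 and 3. It was 8.97, 9.14 and 6.68 in siQk, so that the lowest siQk library lay above the highest siNC library.

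**Figure D3:**
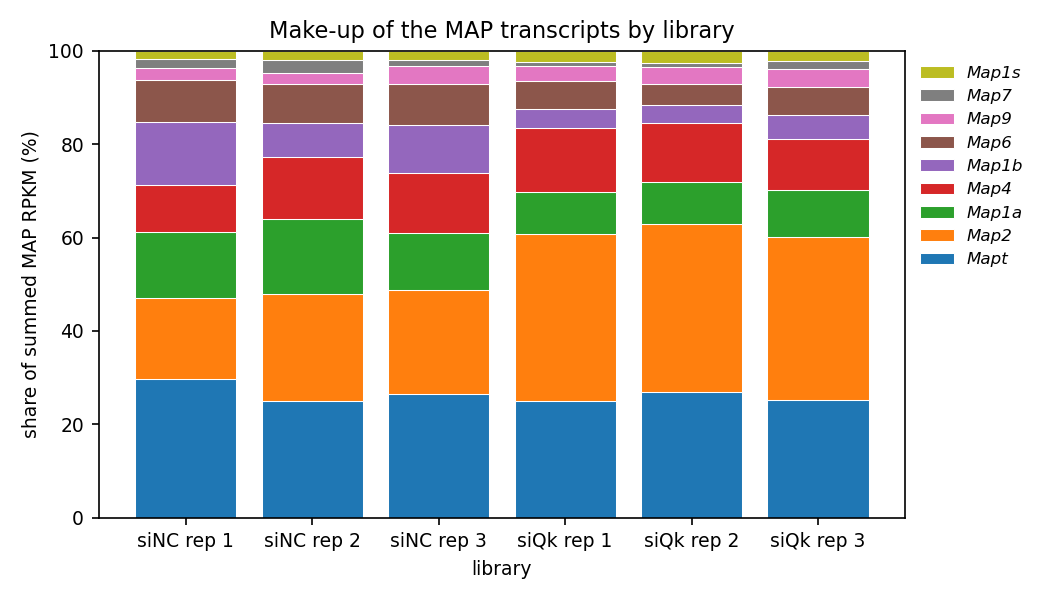
Share of the summed RPKM of the 9 MAP transcripts taken by each gene, in percent, as stacked bars for each library. The Map2 band grows from 17.2% to 22.8% in the siNC libraries to 34.7% to 36.1% in the siQk libraries, while the Map1a, Map1b and Map6 bands are narrower in all siQk libraries.

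Markers of cell types moved with the same contrast. For comparison, 17.2% of all tested genes were called lower and 13.8% higher. Of 11 markers of mature OLs, 8 were lower and 0 higher in siQk by the same edgeR cutoffs, with a median log2 fold change of -1.98, and their summed level went from 3367 to 5918 RPKM in siNC to 1412 to 2146 RPKM in siQk. Among 10 precursor markers 3 were higher (Cspg4, Olig1 and Olig2) and 1 lower (Lhfpl3), with a median of 0.11 and summed levels of 1044 to 1119 RPKM in siNC and 1241 to 1394 RPKM in siQk. Map1a, Map1b and Map6 fell in libraries in which mature OL transcripts were also lower. Map2 rose in libraries in which 3 of the 10 precursor markers were higher, 1 was lower and 6 were not called. The part of a shift between precursor and mature stages in the MAP changes was not tested.

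Map2 and Mapt are also abundant in neurons. Of 12 neuron markers 10 passed the filter, of which 2 were higher (Snap25 and Nefl) and 1 lower (Gad2), with a median log2 fold change of 0.53. Their summed level was 146 to 218 RPKM in siNC and 123 to 168 RPKM in siQk, most of it from Tubb3, a tubulin gene. Snap25, a synaptic gene, went from 0.751 ± 0.124 to 5.18 ± 2.16 RPKM (SD, n = 3), and Nefl, a neurofilament gene, from 1.88 ± 0.414 to 6.36 ± 0.253 RPKM (SD, n = 3). Syt1, Elavl4, Nefm and Gad1 had higher means in siQk, as from 7.53 ± 2.41 to 12.7 ± 1.33 RPKM for Elavl4 (SD, n = 3). Tubb3, Elavl3 and Rbfox3 had lower means, as from 34.3 ± 9.11 to 25.2 ± 5.05 RPKM for Elavl3 (SD, n = 3). None of these was called. Stmn2, an abundant neuronal transcript, was at most 0.0439 RPKM in any library, and Slc17a6 was at 0 in all 6. Of 8 astrocyte markers 6 were tested, and 4 were lower and 0 higher, with summed levels of 180 to 260 RPKM in siNC and 132 to 152 RPKM in siQk and a median log2 fold change of -1.22. The 4 were Gfap, an intermediate filament gene (69.1 ± 27.9 to 9.85 ± 1.26 RPKM), the glutamate transporters Slc1a3 (25.5 ± 3.03 to 10.9 ± 0.913 RPKM) and Slc1a2 (17.5 ± 4.06 to 9.34 ± 0.446 RPKM), and Aldh1l1, an enzyme of folate metabolism (7.02 ± 0.826 to 1.69 ± 0.254 RPKM; SD, n = 3 for each). Aldoc stood at 82.6 to 118 RPKM over the 6 libraries and was not called, while Gja1, a defining astrocyte gene, was at most 0.0130 RPKM. Microglial markers summed to 0.705 to 3.30 RPKM in siNC and 0.304 to 0.403 RPKM in siQk, with C1qa and C1qb at 0, and the 1 of 7 that was tested, P2ry12, was lower with a log2 fold change of -3.16. Fibroblast and vascular markers summed to 2.42 to 4.95 RPKM in siNC and 3.57 to 4.79 RPKM in siQk, with Cldn5 at 0, and the 1 of 8 that was tested was not called, with a log2 fold change of 0.06. The sums of these lists give no count of cells, and their part in the MAP changes was not tested.

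Relatives of the MAPs were read from a list of 17 genes that includes MAP-domain proteins, doublecortins, Camsap and Eml proteins. Of the 14 tested, 1 fell and 2 rose, beside 17.2% lower and 13.8% higher among all tested genes. The median log2 fold change of the list was 0.00. Map6d1, a close relative of Map6, fell from 23.7 ± 10.2 to 6.25 ± 2.34 RPKM (SD, n = 3; log2 fold change -2.08, standard error 0.42, edgeR FDR 0.0109). Map6 and its relative were thus both lower in siQk. Eml4 rose from 11.2 ± 1.61 to 17.1 ± 2.30 RPKM (SD, n = 3; log2 fold change 0.46, standard error 0.12, edgeR FDR 0.0226). Without siNC replicate 2 the relatives called numbered 6 instead of 3.

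Of 21 kinases and phosphatases that act on MAPs, all tested, 2 were lower and 3 higher, with a median log2 fold change of 0.03. Among all tested genes 17.2% were lower and 13.8% higher. Cdk5, a tau kinase, fell from 74.3 ± 4.55 to 58.9 ± 2.94 RPKM (SD, n = 3; log2 fold change -0.49, standard error 0.081, edgeR FDR 0.00541). Its activator Cdk5r1 (p35) rose from 2.41 ± 0.104 to 4.53 ± 0.206 RPKM (SD, n = 3; log2 fold change 0.76, standard error 0.090, edgeR FDR 0.00192). The kinase and its activator therefore moved in opposite directions. Ppp2ca, a catalytic subunit of the phosphatase PP2A, had a log2 fold change of -0.28 (edgeR FDR 0.0251). Camk2a, another kinase that acts on MAPs, rose from 0.578 ± 0.206 to 1.15 ± 0.0682 RPKM (SD, n = 3; log2 fold change 0.85, edgeR FDR 0.0316). Leaving out any single siQk library left 3 of the 21 called.

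Enzymes that sever microtubules or modify tubulin included 20 tested genes of 21, with 4 lower and 4 higher and a median log2 fold change of -0.01. The shares over all tested genes were 17.2% lower and 13.8% higher. Sirt2, a tubulin deacetylase that is abundant in OLs, fell from 2081 ± 564 to 650 ± 109 RPKM (SD, n = 3; log2 fold change -1.84, standard error 0.25, edgeR FDR 0.00278). Katnal1, a relative of the severing enzyme katanin, fell from 39.0 ± 2.29 to 18.7 ± 0.889 RPKM (SD, n = 3; log2 fold change -1.22, standard error 0.093, edgeR FDR 0.000603). Vash2, which removes the terminal tyrosine of tubulin, rose from 4.55 ± 0.506 to 9.82 ± 0.527 RPKM (SD, n = 3; log2 fold change 0.96, standard error 0.090, edgeR FDR 0.000947). Ttll4, which adds glutamate chains to tubulin, had a log2 fold change of 0.65 (standard error 0.061, edgeR FDR 0.000964). Without siQk replicate 1 the list held 5 calls instead of 8.

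Of 13 MAPs of the mitotic spindle, all tested, 8 were higher and 2 lower, with a median log2 fold change of 0.44. These counts stand beside 13.8% higher and 17.2% lower of all tested genes. Tpx2, which nucleates spindle microtubules, rose from 5.09 ± 0.397 to 18.9 ± 6.30 RPKM (SD, n = 3; log2 fold change 1.74, standard error 0.24, edgeR FDR 0.00323). Hmmr, its partner on the spindle, had a log2 fold change of 1.89 (standard error 0.23, edgeR FDR 0.00213). Clasp2 and Ckap5, which act at growing plus ends also outside mitosis, were the 2 that fell, with log2 fold changes of -0.55 (edgeR FDR 0.00236) and -0.27 (edgeR FDR 0.0211). Map9, the member of the 9 known from the spindle, did not share the rise of this list.

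**Figure D4:**
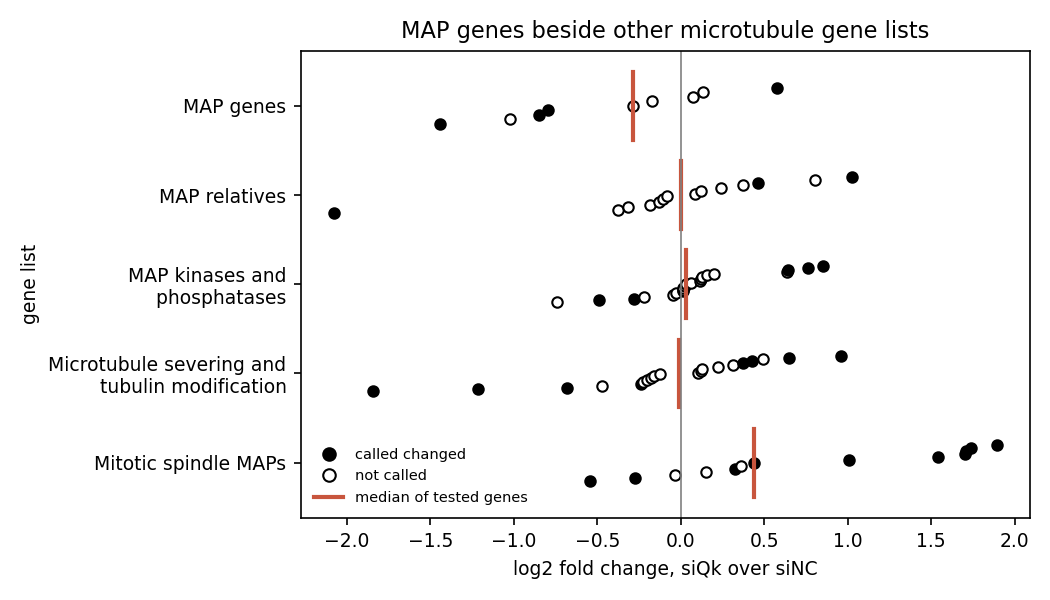
Log2 fold change, siQk over siNC, of each tested gene in the MAP group and 4 lists of other microtubule genes, with filled points for called transcripts and red bars at the medians. The medians are -0.29 for the MAP genes, 0.00 for their relatives, 0.03 for kinases and phosphatases, -0.01 for severing and modification and 0.44 for spindle MAPs.

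Transcripts that varied most like the 4 changed MAPs were found by the Pearson correlation of log2 CPM over the 6 libraries, among 10044 genes with an average logCPM over 3. Since the libraries form 2 groups, these values mostly describe the difference between siNC and siQk and carry no p. For Map1b they were Tspan14, Cuta and Man1a2, each at 0.998, with log2 fold changes of -0.22, -0.25 and -0.65, all smaller than that of Map1b. For Map1a they were Anks1 (0.999), the myelin gene Pmp22 (0.999) and Commd9 (0.998). For Map6 they were Yipf6 (0.998), Mpv17l (0.997) and Ppp1r18 (0.996). For Map2 they were Tlcd3b (0.998), the kinase Mapk14 (0.997) and Ccnt1 (0.997), of which Tlcd3b had the highest log2 fold change, 1.55. None of these 12 genes encodes a MAP.

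Matches to the Qki motif, 4 of which are printed above, were then set beside the changes. The longest annotated 3'UTR held 0 matches in Map1a, Map1b, Map1s and Map7, 1 match each in Map2, Map4, Map6 and Mapt, and 3 in Map9. Of the 3 genes whose transcripts fell, only Map6 therefore held a match, in an annotated 3'UTR that lies before the end of the gene. The 3'UTR of Map1b, at 4360 bases the longest of the 9, held none, while 71.8% of genes with a 3'UTR of 75% to 125% of that length hold at least 1. That of Map1a, at 2745 bases, also held none, beside 57.1% of genes of like length. Map9, with 4018 bases, held 3, a number that 18.6% of genes of like length reach, and its transcript level did not pass the test. For Map6, Map2, Map4 and Mapt, which held 1 match each, 56.8%, 66.7%, 60.9% and 69.8% of genes of like length hold at least 1. The core element followed the motif after a gap of 12 bases in Map9 and of 13 bases in Map4. A motif with a core element stood in 9.40% of all tested genes with an annotated 3'UTR. Of tested genes with an annotated 3'UTR, 52.9% of those called lower held at least 1 match, 27.2% of those called higher and 33.5% of those not called, at median 3'UTR lengths of 1566, 1153 and 1246 bases. Over all 20627 annotated 3'UTRs of at least 50 bases, 32.6% held a match, and the counts for the 9 genes were the same when all their annotated 3'UTRs were merged. A match describes letters in the reference, and its absence says only that these letters are not in the 3'UTR searched, not that Qki proteins do not bind the transcript.

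**Figure D5:**
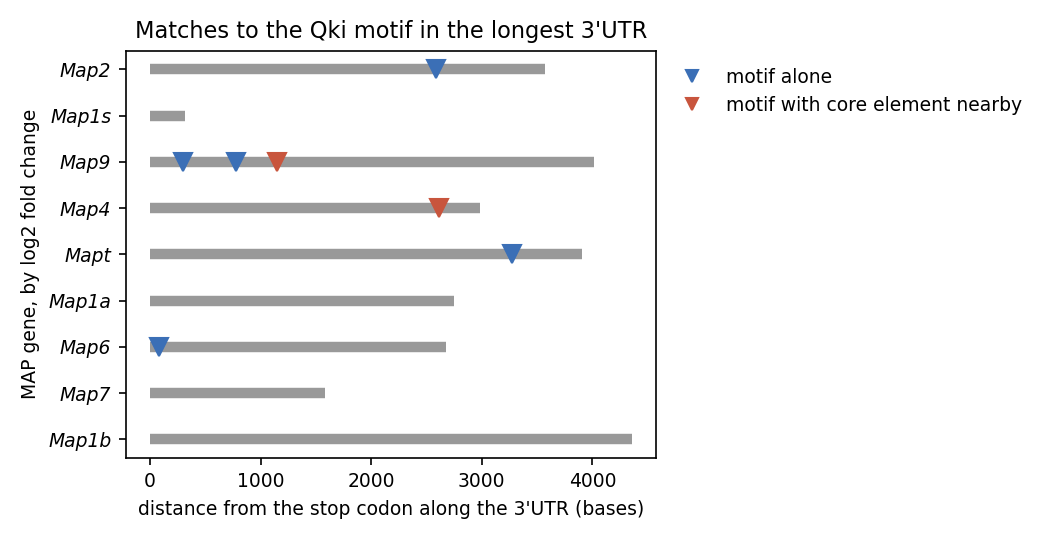
Longest annotated 3'UTR of each MAP gene as a grey bar against the distance from the stop codon in bases, with genes in the order of their log2 fold change and triangles at matches to the Qki motif (red where a core element follows). The Map1b, Map1a, Map7 and Map1s bars carry no triangle, and Map9 carries 3.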

How the data were processed

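Polyadenylated RNA of 6 mOPC libraries, 3 siNC and 3 siQk, was analysed. OLego was the authors' aligner, against mm10, and Quantas their counter, and their versions and the annotation are not given in the sources used here. The deposited tag numbers are estimated counts per gene, not normalized, with decimals for 23.1% to 26.2% of genes. The deposited RPKM values equal tag number over exon length and library total, as recomputed here. Whether counting used the strand is not stated, so that overlapping and antisense genes are uncertain.

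Estimated counts were rounded and tested with edgeR 4.0.16 (limma 3.58.1, R 4.3.3), by its quasi-likelihood test with TMM factors and no block, on genes with an average logCPM over 0. Calls needed a P under 0.01 and an FDR under 0.1, by the Benjamini-Hochberg method over all 12505 tested genes. The standard error is the absolute log2 fold change over the square root of F. The procedure was tested on simulated data. Replicates differed by a chi-square of at least 36.3 per degree of freedom, so that each library was counted as 1 replicate. DESeq2 1.42.0 and other settings were alternatives.

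The members and all gene lists were chosen with earlier results of these data known. Named were the 9 genes, Qk, the 2 called genes of each pathway list with the largest change in each direction and an average logCPM over 2, and the 3 most correlated genes of each called MAP. Other markers named were chosen after their values were seen. Gene positions and 3'UTRs are from GENCODE M21 (GRCm38).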

Additional observations from a re-analysis of the deposited data

How the results depend on the processing

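Map1a, Map1b, Map2 and Map6 kept their direction and their call in all 15 alternative fits (other normalizations, filters, tests, thinned libraries, the replicate block and each library left out), with log2 fold changes of -0.94 to -0.64, -1.64 to -1.14, 0.50 to 0.72 and -0.95 to -0.70. Map1s, Map4, Map9 and Mapt were called in 0 of the 15. Map7 was called in 2, with -1.03 by DESeq2's Wald test and -1.33 without siNC replicate 3, and ranged from -1.42 to -0.67 over the libraries left out. Map9 turned to -0.054 without siNC replicate 2 and to -0.015 without siQk replicate 3, and ranged from -0.054 to 0.24 over the libraries left out. With the cutoff set at an FDR under 0.05 and a log2 fold change of 1 or more in size, 1 MAP gene was called, 1 lower and 0 higher, since only Map1b passes both, beside 946 of all 12505 genes (620 lower, 326 higher). For the MAP relatives 5 genes were called with library size only, and 2 to 6 with a library left out. For kinases and phosphatases 3 were called with the replicate block, and 3 to 6 with a library left out. For severing and modification 5 to 9 were called with a library left out. The cause of these moves was not tested. Library size only raised the median of all genes to 0.16. Replicate numbers did not pair the libraries (correlations of same-numbered deviations -0.05, -0.15 and -0.34). With the replicate block Map1b was at -1.40, Map1a at -0.79, Map2 at 0.58 and Map6 at -0.86, and 2796 genes in all were called instead of 3879. By tag numbers instead of RPKM, Map2 made up 24.8% of the 9 in siNC and 42.0% in siQk, Map1b 18.9% and 8.0%, and Map1a 7.62% and 5.02%.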

Other observations

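The order of the libraries within each group, read after the values were seen and with no test, was the same for some MAP transcripts and mature OL markers. In siQk, Map1a, Map1b, Map2, Map6 and Map7 were highest in replicate 3 and lowest in replicate 2. The same held for each of the mature OL markers. The share of all tested genes with this order in siQk was not computed, so that the match cannot be weighed. The siQk values of Map2 lay close together, at 95.0 to 98.4 RPKM. Map6 ranked the 3 siNC and the 3 siQk libraries in the order of mature OL markers that include Mbp, Mag, Cnp and Myrf, an order that 2.30% of all tested genes had. Map1a and Map7 ranked them like Mog, Mobp, Mal and Ermn, an order found in 3.91% of tested genes. Map1b ranked them like Cldn11 and Opalin, an order found in 2.16%. None of the 11 mature OL markers shared its order over both groups with Map1s, Map2, Map4, Map9 or Mapt. Replicates of a group have no order of their own, and 3 libraries in each group give few possible orders.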
